A study of Mus musculus with 8 samples.

Results

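The genes of oxidative phosphorylation were followed across adipose progenitors with high and low surface CD9. Members were the genes whose platform symbol begins with Nduf and a letter a, b, c, s or v and a number, is Sdha, Sdhb, Sdhc or Sdhd, or begins with Uqcr, with Cox and a number from 4 to 8, or with Atp5. They numbered 78 of the 19057 genes named on the array, and 74 of them were measured among 10724 genes measured in all. The rule used names and detection only, and was set with earlier results of these data known. For dim genes such as Cox4i2 and Cox8b, detection itself depends on the difference between the fractions.

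Oxidative phosphorylation takes place in the inner mitochondrial membrane. Complexes I and II feed electrons from NADH and succinate to ubiquinone, complex III passes them to cytochrome c, and complex IV hands them to oxygen. Complexes I, III and IV pump protons, and complex V, the ATP synthase, uses the proton gradient to make ATP. In white fat the chain supplies ATP, whereas in brown fat the uncoupling protein Ucp1 lets the gradient run down as heat. Several complex IV subunits exist as a general form and a form restricted to certain tissues.

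The samples were CD9high progenitors on 4 arrays and CD9low progenitors on 4 arrays. All came from epididymal white fat of lean C3H mice (C3H/HeOuJ in the study's title) aged 3 months, on chow by the sample titles. Every sample was gated as negative for CD45 and CD31 and positive for Gp38 and PDGFRα, so the fractions share that gate and differ in CD9. The titles and cell type labels were followed where another label field of the CD9low samples speaks of high CD9 and the gate text repeats CD9high. Nothing in the labels says whether samples were separate mice or pools, so the spread behind each p-value is that between these samples and may be technical.

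Cd9 itself was read as a check of the labels. Its normalized log2 intensity was 8.56, 8.55, 8.27 and 8.37 on the CD9high arrays and 5.40, 4.36, 5.08 and 4.37 on the CD9low arrays, with no overlap (exact two-sided permutation p = 0.0286, the smallest that 4 arrays against 4 can give). The gate genes Pdgfra and Pdpn, which encode PDGFRα and Gp38, were above background on all 8 arrays. Genes of the excluded cells were not at 0: Pecam1, which encodes CD31, was detected on all 8 arrays, and Ptprc, which encodes CD45, on 2 CD9high arrays and 3 CD9low arrays. The arrays gave a signal above background, that is a detection p under 0.05, for 41.1% to 51.1% of 45281 probes.

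CD9low replicate 2 stood apart from the other arrays of its fraction. It had the lowest share of detected probes (41.1%) and the lowest median signal (5.03, against 7.14 to 10.5 on the other 7 arrays). Among all measured genes, 27.1% lay more than 1 log2 unit from the median of the other 3 CD9low arrays, and 14.2% did so on CD9high replicate 2, while the other 6 arrays gave 2.95% to 7.55%. Among the 74 members, 16 (21.6%) lay that far off on CD9low replicate 2, 14 of them below and 2 above. It was the highest or the lowest of the 4 CD9low arrays for 67 of 74 members. The differences that rest most on this array are therefore given with and without it.

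The comparison asks whether the 2 progenitor fractions differ in the transcripts of their respiratory machinery. No member passed the test in either direction: with limma and Benjamini-Hochberg adjustment over all 10724 genes, 0 of 74 members reached an adjusted p of 0.05, against 1.69% of all genes (1.13% higher and 0.559% lower in CD9high). The smallest adjusted p of any member was 0.118. At an unadjusted p under 0.05 the count was 5 of 74 (6.76%), all 5 lower in CD9high, against 10.7% of all genes in either direction and 5.34% lower. The 5 were Ndufs7 of complex I, Uqcrq of complex III, and Cox4i2, Cox7a1 and Cox8b of complex IV. In 3 of 74 members (4.05%) the fractions did not overlap, against 7.69% of all genes: Ndufa1 was higher in CD9high (3.92% of all genes), and Cox4i2 and Cox7a1 were lower (3.78% of all genes). Counts of members near or under these background shares are not a result about the members.

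Differences are given as log2 fold changes of CD9high over CD9low, so that 1 means a doubling of the normalized intensity. Of the 74 members, 37 lay above 0 and 37 below, and the median was 0.0077, beside -0.040 over all genes measured. The difference was under 0.5 in size for 63 of 74 members (85.1%), as for 76.5% of all genes. A missed threshold does not show that the fractions are alike, so each member's 95% interval was read as well. It lay wholly between -1 and 1 for 51 of 74 members (68.9%), as for 56.0% of all genes. For the other 23 members a doubling or halving, in at least 1 direction, lies within or at the edge of what these arrays allow. More of the members were above background on all 8 arrays, 68 of 74 (91.9%), against 73.9% of all genes. Restricted to genes detected on all 8 arrays, intervals within -1 and 1 were found for 75.0% of the 68 members and 59.0% of 7925 genes. The part of brightness in these shares was not tested.

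**Figure D1:**
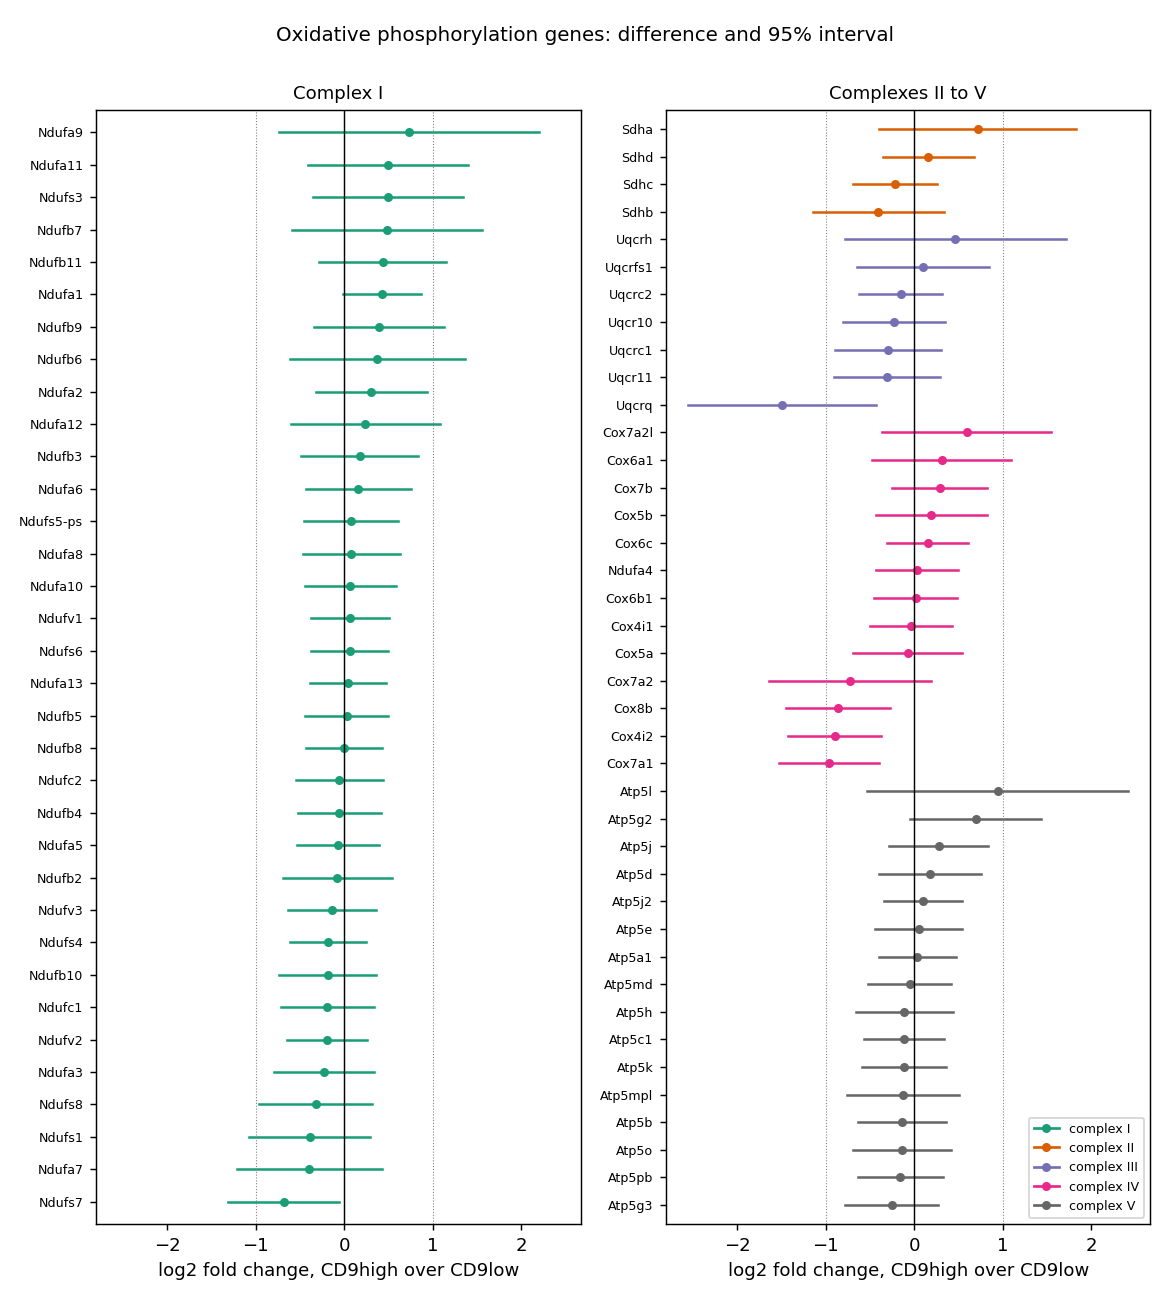
Log2 fold change of CD9high over CD9low (points) with its 95% interval (lines) for the 74 measured members, complex I on the left and complexes II to V on the right, ordered by value within each complex; dotted lines stand at -1 and 1. Most points lie near 0, Atp5l and Ndufa9 have the widest intervals, and Uqcrq at -1.49 stands lowest.

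By complex, the medians were 0.054 over 34 members of complex I, -0.027 over 4 of complex II, -0.23 over 7 of complex III, 0.017 over 13 of complex IV and -0.079 over 16 of complex V. Here Ndufa4, named for complex I but now counted as a subunit of complex IV, was placed in complex IV. The median of each complex varied between arrays of a fraction by an SD of 0.046 (complex I), 0.15 (II), 0.24 (III), 0.12 (IV) and 0.11 (V). The medians of complexes II to V were thus smaller than the spread between arrays, and that of complex I was about as large as it. Without CD9low replicate 2 the medians were -0.050 for complex I, 0.017 for II, -0.11 for III, -0.044 for IV and 0.028 for V, so that the sign of all but complex III rests on that array.

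Complex I, the NADH dehydrogenase, was represented by 6 core subunits, 27 accessory subunits and a probe annotated to the pseudogene Ndufs5-ps, which differed by 0.081. The core subunits carry the flavin and the iron-sulphur clusters. Their median was -0.26, with 2 above 0 and 4 below, and that of the accessory subunits was 0.061, with 16 above 0 and 11 below. Without CD9low replicate 2 these medians were -0.12 and -0.022, and the pseudogene probe stood at -0.067. Only Ndufs7, a core subunit that holds the iron-sulphur cluster next to the quinone site, had an unadjusted p under 0.05. It stood at 7.99, 7.60, 7.81 and 8.42 on the CD9high arrays and 8.39, 9.31, 8.36 and 8.51 on the CD9low arrays. CD9high replicate 4 lay within the CD9low range, and the highest value was that of CD9low replicate 2. The log2 fold change was -0.68 (SE 0.28, adjusted p = 0.422), and -0.46 (SE 0.23) without CD9low replicate 2.

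Ndufa1, a small accessory subunit of the membrane arm, was the member of complex I whose fractions were apart. Its values were 10.43, 10.26, 10.26 and 10.40 in CD9high, against 9.95, 9.70, 10.01 and 9.97 in CD9low. The gap was narrow, with a difference of 0.43 (SE 0.20, adjusted p = 0.484) and a 95% interval of -0.010 to 0.87. Ndufb11, another membrane arm subunit, stood at 4.96, 6.13, 4.65 and 5.23 in CD9high and 4.75, 4.42, 5.13 and 4.91 in CD9low, near background, and the fractions overlapped (0.44, SE 0.32, adjusted p = 0.695). The largest positive difference of the complex, 0.73 (SE 0.66) for the accessory subunit Ndufa9, came with a CD9low replicate 2 value of 5.74, while the other 3 CD9low arrays gave 8.41 to 9.41. Without that array it was -0.081 (SE 0.26). Ndufb8, an accessory subunit of the membrane arm, was among the most even of the members, with a difference of -0.0015 and an interval of -0.43 to 0.43.

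Complex II, succinate dehydrogenase, also belongs to the citric acid cycle and holds no mitochondrially encoded subunit. Sdha, the flavoprotein that oxidises succinate, stood at 7.50, 8.74, 7.76 and 8.46 in CD9high and 7.99, 5.75, 7.85 and 7.99 in CD9low. Apart from the low value of CD9low replicate 2 the fractions overlapped: the difference was 0.72 (SE 0.50, adjusted p = 0.670) over all arrays and 0.17 (SE 0.31) without that array. Sdhb, the iron-sulphur subunit, had 7.38, 6.27, 7.75 and 7.48 in CD9high and 7.32, 8.07, 7.41 and 7.69 in CD9low. Here CD9high replicate 2 was the low array and CD9low replicate 2 the high array, and the difference was -0.40 (SE 0.33, adjusted p = 0.718), or -0.26 without CD9low replicate 2. The membrane anchor Sdhc had 11.10, 11.03, 10.97 and 11.09 in CD9high, and 10.88, 11.50, 11.40 and 11.28 in CD9low. These met closely, the log2 fold change being -0.22 (SE 0.21, adjusted p = 0.770), and -0.14 without CD9low replicate 2. The other anchor, Sdhd, differed by 0.16.

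Complex III, the cytochrome bc1 complex, held the member with the largest fitted difference. Uqcrq encodes a small subunit close to the ubiquinone site. It stood at 5.00, 5.73, 6.30 and 7.66 in CD9high, against 7.17, 7.71, 7.87 and 7.90 in CD9low. The CD9high arrays spread over more than 2 log2 units, and replicate 4 lay within the CD9low range, whereas the CD9low arrays lay close together. The log2 fold change was -1.49 (SE 0.48, 95% interval -2.56 to -0.43, adjusted p = 0.236). Without CD9high replicate 4 it was -1.99 with an adjusted p of 0.0305, the only setting of 17 alternatives in which a member passed. In the other 16, its adjusted p ran from 0.104 to 0.506. The probe behind these values is annotated to a cDNA clone, and the gene's other probe, annotated to its RefSeq transcript, was above background on 0 of 8 arrays.

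No such difference was seen for the other subunits of complex III. Uqcrc1, a core protein on the matrix side, had 8.70, 8.85, 8.97 and 9.49 in CD9high and 9.05, 9.88, 9.14 and 9.13 in CD9low (-0.30, SE 0.27, adjusted p = 0.743). Uqcr11, a small subunit, had 9.75, 9.18, 9.40 and 9.58 in CD9high and 9.70, 10.40, 9.26 and 9.77 in CD9low (-0.31, SE 0.27, adjusted p = 0.740). In both genes the highest value was that of CD9low replicate 2, and without it the differences were -0.11 and -0.10. Uqcrh, the hinge protein that contacts cytochrome c1, went the other way, with 6.47 on CD9low replicate 2 beside 9.24 to 9.26 on the other 3 CD9low arrays. Its difference was 0.47 (SE 0.57) with that array and -0.23 (SE 0.22) without it. The catalytic Rieske protein gene, Uqcrfs1, differed by 0.10 (adjusted p = 0.940), and by 0.18 without CD9low replicate 2.

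Complex IV, cytochrome c oxidase, was the complex in which tissue-restricted forms and general forms could be read side by side. The 3 measured tissue-restricted forms all differed downward in CD9high, by -0.90, -0.96 and -0.86, with none past the test, while the 9 general subunits had a median of 0.034 (-0.040 without CD9low replicate 2). All 3 were near background. Cox4i2 and Cox8b met the filter of 4 arrays through CD9low alone, which favours a lower value in CD9high, so that the shared sign supports nothing by itself. Cox7a1 was detected in both fractions.

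Cox4i2, the form of subunit 4 known from lung and from cells short of oxygen, had no CD9high array with a signal above background. Its measured values were 4.31, 4.56, 4.37 and 4.49 in CD9high, against 4.95, 5.85, 5.24 and 5.28 in CD9low. The fractions did not overlap. The CD9low mean of 5.33 was 1.49-fold above the dimmest signal above background on the CD9high arrays. This ratio compares means and leaves out their sampling error. The fitted log2 fold change was -0.90 (SE 0.24, 95% interval -1.43 to -0.37, adjusted p = 0.118), so the gene did not pass the test. It was -0.73 (SE 0.20) without CD9low replicate 2. Its general counterpart Cox4i1 had 10.46, 10.12, 10.34 and 10.27 in CD9high and 10.62, 10.18, 10.33 and 10.20 in CD9low. These overlapped closely, with a difference of -0.030 (SE 0.21, 95% interval -0.49 to 0.43).

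Cox7a1, the heart and skeletal muscle form of subunit 7a that brown fat also uses, was detected on 3 arrays of CD9high and all 4 of CD9low. It stood at 5.00, 4.36, 5.14 and 4.95 in CD9high, against 5.60, 5.94, 5.53 and 6.21 in CD9low. All CD9high arrays lay below all CD9low arrays, and the difference was -0.96 (SE 0.26, 95% interval -1.53 to -0.39, adjusted p = 0.120). Its general counterpart Cox7a2 had 6.14, 4.58, 6.21 and 6.60 in CD9high and 6.70, 6.98, 6.72 and 6.01 in CD9low. Unlike Cox4i1 it was uneven, with CD9high replicate 2 far below the rest, and differed by -0.72 (SE 0.41, adjusted p = 0.592). Cox8b, the heart and muscle form of subunit 8, was detected on 1 array of CD9high and all 4 of CD9low. Its values were 4.51, 4.66, 4.42 and 5.16 in CD9high and 5.31, 5.88, 5.84 and 5.15 in CD9low, where CD9high replicate 4 and CD9low replicate 4 met (-0.86, SE 0.26, adjusted p = 0.203). In bulk samples, fewer cells that carry a transcript and less of it per cell cannot be told apart.

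**Figure D2:**
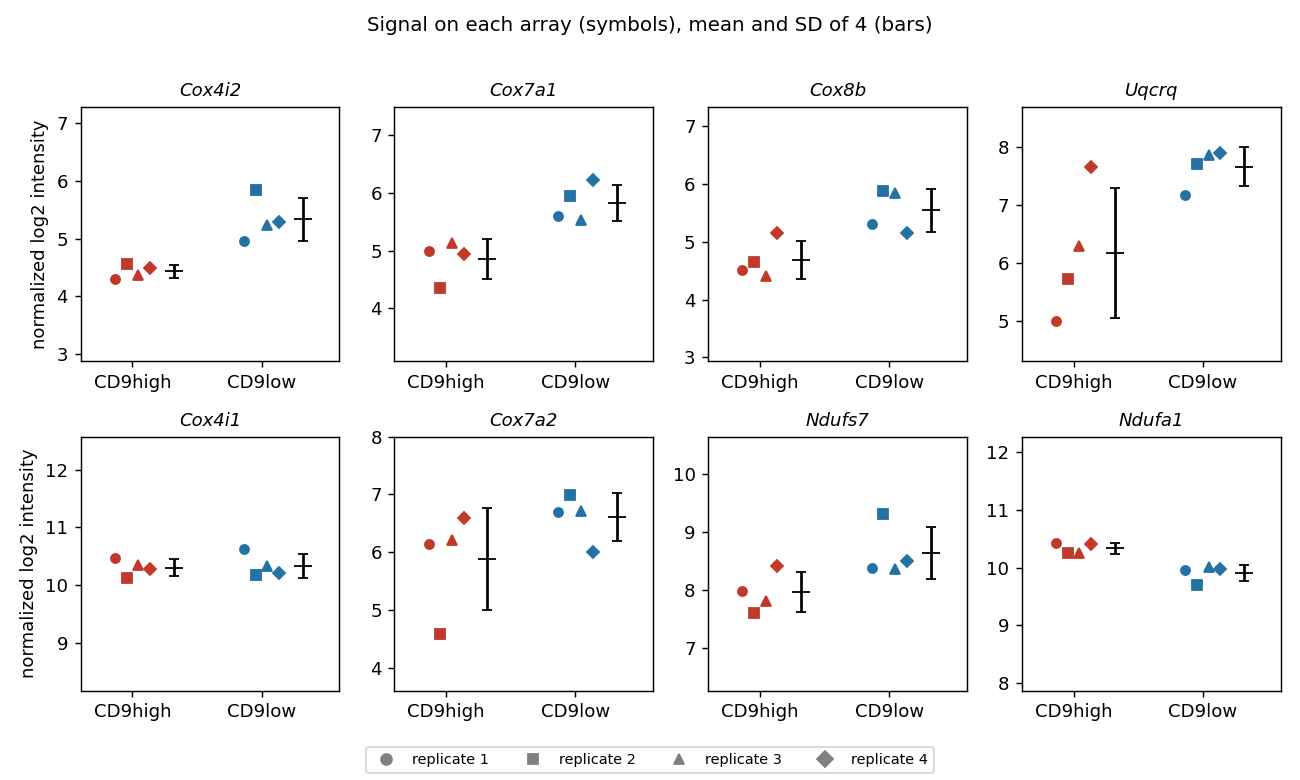
Normalized log2 intensity on each array for 8 members, CD9high (red) left of CD9low (blue), with a symbol for each replicate and the mean and SD of 4 arrays as black bars; every panel spans the same number of log2 units. Cox4i2, Cox7a1 and Ndufa1 show fractions that do not overlap, Cox4i1 shows fractions that coincide, and Uqcrq shows the wide CD9high spread.

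Cell type markers were read beside these genes. Among 10 brown and beige adipocyte markers, 9 had a named probe, and 5 of these were not above background on any array: Ucp1, Cidea, Elovl3, Prdm16 and Zic1. Without Cox7a1 and Cox8b, which are on that list, the summed linear signal of the remaining 7 was 33.1 to 39.4 in CD9high and 32.7 to 39.5 in CD9low. Of these 7, 0 were detected on 4 or more arrays, so the sums lie near background and cannot show whether the fractions differ. The summed signal of 9 general adipocyte markers was 5318 to 6614 in CD9high and 10225 to 12221 in CD9low. The brightest probe, that of Lpl, weighs most in this sum. Of the 6 measured, 2 were lower in CD9high by the test, Pparg (-1.59, adjusted p = 0.0204) and Lpl (-1.01, adjusted p = 0.0307). The others did not pass, with differences of -0.72 (Fabp4), -0.31 (Cidec), -0.066 (Adipoq) and 0.00015 (Lep). The defining marker Plin1, Retn and Slc2a4 were not above background on any array. Pericyte and smooth muscle markers summed to 1173 to 2331 in CD9high and 1786 to 3181 in CD9low, with 0 of 9 past the test. Endothelial markers, of which 0 of 6 measured passed, summed to 1066 to 1581 in CD9high and 988 to 2081 on 3 CD9low arrays, but to 3585 on CD9low replicate 2. Leukocyte markers likewise summed to 240 to 1872 in CD9high, 144 to 998 on those 3 CD9low arrays and 2794 on CD9low replicate 2. Macrophage markers summed to 323 to 2555, 290 to 1493 and 2927. Of these lists, 0 of 5 and 0 of 9 passed the test. For endothelial, leukocyte and macrophage markers the highest CD9high sum was that of CD9high replicate 2. Both erythroid markers were measured and did not pass; their sum was 782 to 1028 in CD9high, 1176 to 1478 on those 3 arrays and 389 on CD9low replicate 2, where Alas2 was the highest and Hba-a1 the lowest of the fraction. The part of these cell types in the complex IV values, and in the deviations on CD9low replicate 2, was not tested. Of the skeletal muscle markers, 4 of 6 were not above background on any array: Acta1, Ckm, Myh4 and Cox6a2, itself a member. Mylpf was detected on 1 CD9high array and 2 CD9low arrays, and Tnnt3 on 2 and 1, so neither met the filter.

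The remaining complex IV members were even between the fractions or uneven among arrays. Cox6b1, which faces the intermembrane space, had 10.94, 10.79, 11.04 and 11.07 in CD9high and 10.99, 11.20, 10.66 and 10.91 in CD9low, a difference of 0.017 (SE 0.21). Ndufa4 had 10.60, 10.50, 10.84 and 10.54 in CD9high and 10.46, 10.42, 10.84 and 10.63 in CD9low, a difference of 0.034 (SE 0.21). For both, the fractions overlapped almost wholly and the 95% intervals stayed within 0.5 on either side of 0. Cox6a1, the general form of subunit 6a, had 10.22, 9.83, 9.50 and 9.65 in CD9high and 9.91, 8.43, 9.55 and 10.08 in CD9low (0.31, SE 0.36), and without CD9low replicate 2 the difference was -0.044. Cox7a2l, which helps complexes III and IV join into supercomplexes, had the largest positive value of the complex. It stood at 9.05, 8.25, 7.84 and 6.80 in CD9high and 7.98, 6.99, 7.19 and 7.41 in CD9low, so that the CD9high arrays spanned the whole CD9low range (0.59, SE 0.43, adjusted p = 0.685).

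The 4 members that were not measured were all restricted forms of complex IV subunits. They were Cox6a2 of heart and muscle, and Cox6b2, Cox7b2 and Cox8c, forms known from testis. Cox6a2, Cox7b2 and Cox8c were above background on 0 of 8 arrays. Cox6b2 had a probe detected on 2 arrays of CD9high and 0 of CD9low, and another detected on 0 of 8.

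The sequences upstream of some complex IV genes are shown, the restricted forms Cox7a1 and Cox8b and the general forms Cox7a2 and Cox6a1. Each line gives the 250 bases before the gene's start and the 50 after it, 5′ to 3′ on the gene's strand, from RefSeq on build GRCm38.p6, which holds the promoters of 62 of the 74 members. Cox7a1 lies at chr7:30183921-30184220 on the plus strand, Cox8b at chr7:140900397-140900696, Cox7a2 at chr9:79759804-79760103 and Cox6a1 at chr5:115348909-115349208, these 3 on the minus strand. Capitals mark matches, on either strand, to the NRF1-type motif (GCGCA, any base, GCGC), to the ETS-type motif that GABPA binds (CCGGAAG) or to the TATA box (TATAAA). NRF1 and GABPA are known as activators of nuclear respiratory genes.
Cox7a1: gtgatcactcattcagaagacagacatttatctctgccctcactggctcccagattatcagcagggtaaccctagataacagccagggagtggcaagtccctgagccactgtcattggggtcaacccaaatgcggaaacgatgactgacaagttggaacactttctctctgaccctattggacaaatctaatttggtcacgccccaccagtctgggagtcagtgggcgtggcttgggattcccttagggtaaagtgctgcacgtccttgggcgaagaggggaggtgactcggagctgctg
Cox8b: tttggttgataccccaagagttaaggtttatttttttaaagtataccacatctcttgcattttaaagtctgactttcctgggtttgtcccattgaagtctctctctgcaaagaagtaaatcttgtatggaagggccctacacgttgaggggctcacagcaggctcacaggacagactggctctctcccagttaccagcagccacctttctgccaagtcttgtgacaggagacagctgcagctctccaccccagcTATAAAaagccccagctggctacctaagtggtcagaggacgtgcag
Cox7a2: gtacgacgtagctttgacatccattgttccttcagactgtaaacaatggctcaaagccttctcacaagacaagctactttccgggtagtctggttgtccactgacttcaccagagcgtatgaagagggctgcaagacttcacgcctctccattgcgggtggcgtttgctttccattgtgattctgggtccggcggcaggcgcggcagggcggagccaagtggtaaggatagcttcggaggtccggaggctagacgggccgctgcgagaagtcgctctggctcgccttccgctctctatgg
Cox6a1: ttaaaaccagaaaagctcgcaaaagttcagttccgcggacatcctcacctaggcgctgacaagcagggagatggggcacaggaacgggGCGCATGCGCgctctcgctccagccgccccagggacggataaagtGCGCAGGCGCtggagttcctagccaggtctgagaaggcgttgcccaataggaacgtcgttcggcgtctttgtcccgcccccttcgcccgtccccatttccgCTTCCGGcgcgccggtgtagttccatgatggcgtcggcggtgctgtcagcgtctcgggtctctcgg
Cox6a1 held 3 matches, to the NRF1-type and ETS-type letters. Cox8b held a TATA box match and neither of the others, and the windows of Cox7a1 and Cox7a2 held none of the 3. Of 10 complex IV promoters, 1 held the NRF1-type letters (Cox6a1) and 2 the ETS-type letters (Cox6a1 and Cox6b1). The general subunits Cox5a, Cox5b, Cox7b and Ndufa4 held neither, so Cox6a1 does not stand for the general forms.

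Over the whole group, the NRF1-type letters were found in 17 of 67 member promoters (25.4%), against 4.60% of 32851 promoters of the same length. The ETS-type letters were in 16 of 67 (23.9%), against 8.86% of all, and the TATA letters in 8 of 67 (11.9%), against 13.6%. Member promoters were richer in G and C, with a median of 58.3% against 52.7%, which bears on GC-rich letters. Both the NRF1-type and the ETS-type letters stood in the promoters of Sdhd, Cox6a1, Atp5h and Atp5k, and neither in 38 of 67. These matches describe the letters and no binding.

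Complex V, the ATP synthase, had the smallest median size of difference of the 5 complexes, 0.13 whatever the sign, beside 0.26 over all genes, and 14 of its 16 intervals lay between -1 and 1. The 5 genes of the catalytic F1 head and central stalk lay between -0.13 (Atp5b, the catalytic beta subunit) and 0.18 (Atp5d, the delta subunit), and all 5 intervals lay between -1 and 1. Without CD9low replicate 2 the 5 lay between -0.029 and 0.15, with Atp5b at 0.020 and Atp5d at 0.057. The 4 peripheral stalk genes, whose products hold the head still, lay between -0.15 and 0.28, again with all 4 intervals inside that range. Among them Atp5j, which encodes coupling factor 6, had 10.48, 10.27, 10.70 and 10.23 in CD9high and 10.43, 9.58, 10.40 and 10.16 in CD9low (0.28, SE 0.25, adjusted p = 0.747). CD9low replicate 2 was the lowest array, and without it the difference was 0.087.

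The c ring, which turns in the membrane as protons pass, is encoded by several genes for the same mature protein, and 2 were measured. Atp5g2 stood at 7.78, 7.54, 7.25 and 7.70 in CD9high and 7.20, 6.11, 6.50 and 7.67 in CD9low. The fractions overlapped through CD9low replicate 4, and the difference was 0.70 (SE 0.33, adjusted p = 0.504), or 0.44 (SE 0.29) without CD9low replicate 2. The other gene, Atp5g3, differed by -0.25 (SE 0.24), or -0.13 without that array, so that the c ring genes had opposite signs. Whether their probes also read the sister genes was not checked. Atp5l, which encodes subunit g of the membrane part, had the largest positive difference of any member. Its values were 10.18, 10.12, 9.83 and 9.78 in CD9high and 10.32, 6.55, 9.45 and 9.80 in CD9low. Only CD9low replicate 2 stood off, and the difference of 0.95 (SE 0.67, adjusted p = 0.674) became 0.12 (SE 0.25) without it.

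**Figure D3:**
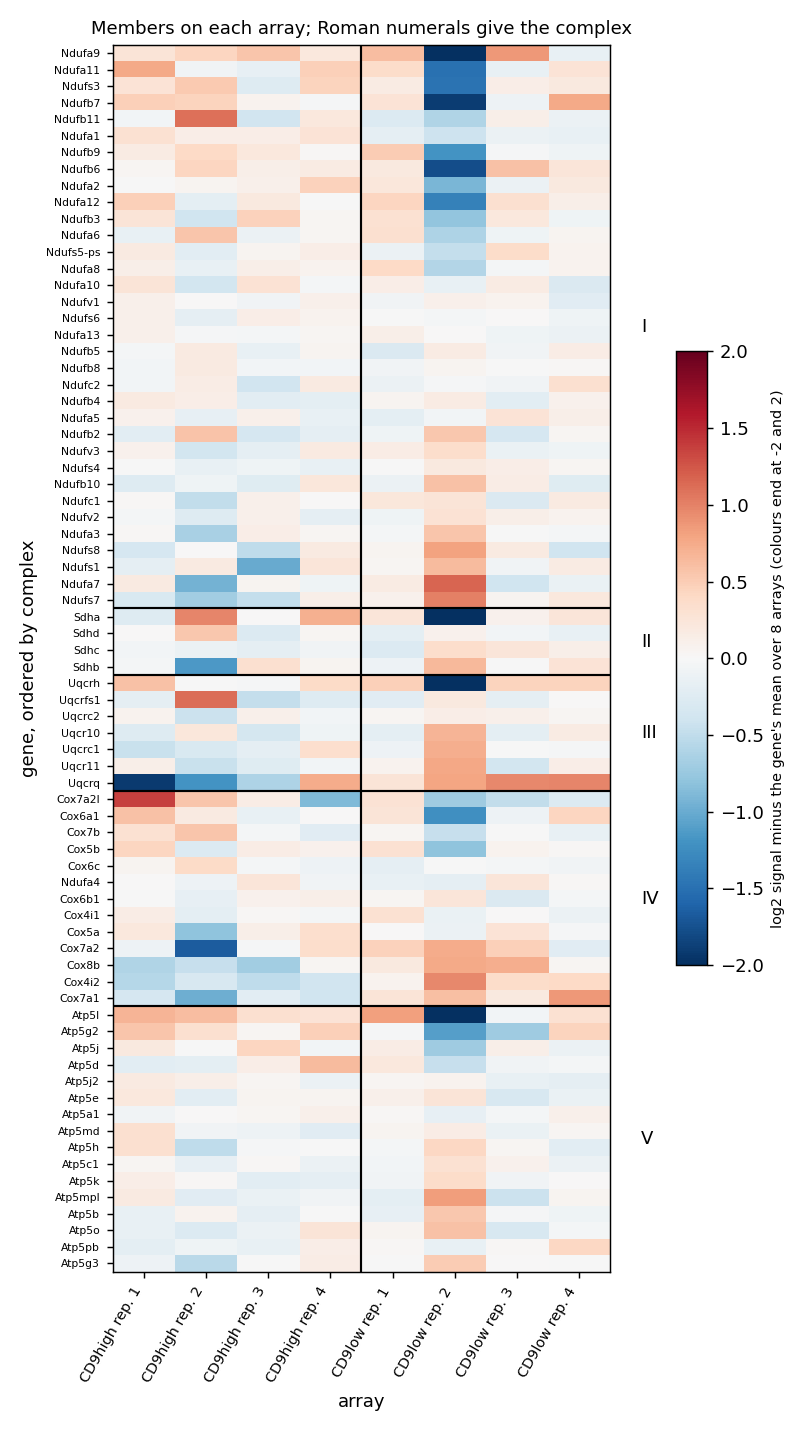
Log2 signal of the 74 members (lines of the map) on the 8 arrays (columns, CD9high left of CD9low), each as the difference from the gene's mean over all arrays; black lines part the complexes. CD9low replicate 2 carries the most deep colours, in both directions.

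Leaving out CD9low replicate 2 made the members more even, as it did all genes. The difference was then under 0.5 in size for 69 of 74 members (93.2%, against 85.1% with it) and for 82.6% of all genes (76.5% with it). The median SE fell from 0.25 to 0.22 for the members and from 0.29 to 0.26 for all genes. The array was singled out for its deviations, so evenness without it is no result about the members. The positive differences of Atp5l, Ndufa9, Sdha and Uqcrh, which were the widest intervals of their complexes, all came near 0 or turned sign. Smaller negative differences also came nearer to 0, such as those of Ndufa7 (-0.072 without that array, against -0.39 with it) and Uqcr10 (-0.038, against -0.23). Some of the smaller ones moved little, such as that of Ndufs4 (-0.15, against -0.18). The 4 largest negative differences stayed negative: Uqcrq stood at -1.48 (SE 0.53), Cox7a1 at -0.92 (SE 0.26), Cox8b at -0.75 (SE 0.26) and Cox4i2 at -0.73 (SE 0.20). At an unadjusted p under 0.05 these were the 4 members of 74 (5.41%, against 10.4% of all genes), and 0 passed the adjusted test in limma.

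**Figure D4:**
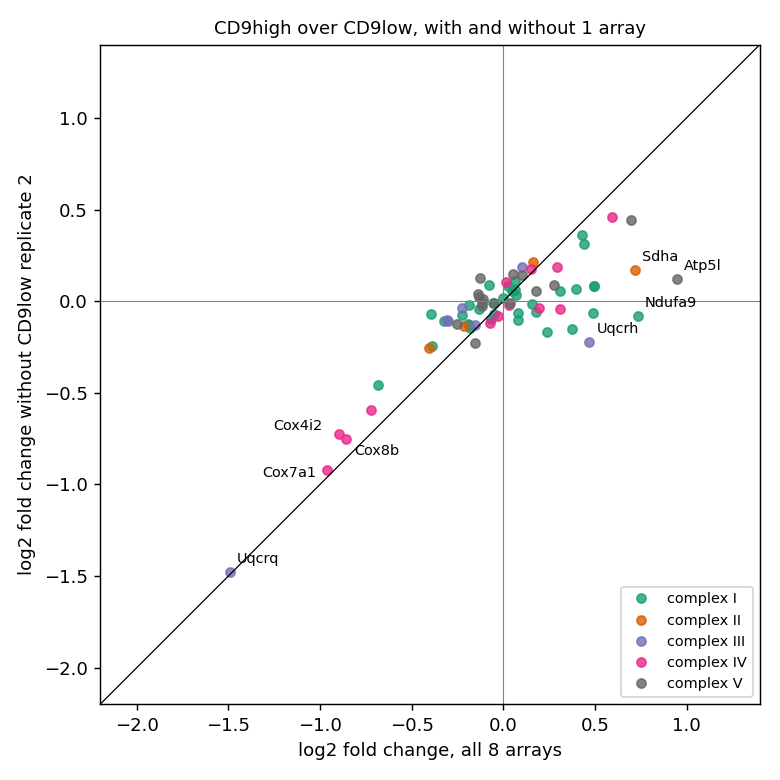
Log2 fold change of CD9high over CD9low for each of the 74 members with all 8 arrays (horizontal) and without CD9low replicate 2 (vertical), coloured by complex; the diagonal marks equal values. Atp5l, Ndufa9, Uqcrh and Sdha lie far right of the diagonal and close to 0 vertically, and Uqcrq, Cox7a1, Cox8b and Cox4i2 lie on or near it.

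Probes of the same gene showed what this array did to single measurements. For 22 members several probes passed the filter, and in 13 of them all probes had the same sign of difference and in 9 they did not. No probe of any member passed the test on its own (103 probes in limma). The genes described next were picked after their values were seen, for the widest gaps between probes. For Atp5o, the peripheral stalk subunit known as OSCP, the brightest probe read 10.11 on CD9low replicate 2 and 9.20 to 9.58 on the other CD9low arrays. The other 2 probes of Atp5o read 4.39 and 4.25 there, while the other CD9low arrays gave 7.46 to 7.66 and 7.14 to 7.33. The same transcript was thus the highest of its fraction by one probe and near background by the others.

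Sdhb repeated the pattern. Its brightest probe read 8.07 on CD9low replicate 2, the highest of the fraction, and its other probes 4.51 and 4.65, where the remaining CD9low arrays gave 6.68 to 6.83 and 7.01 to 7.19. With all arrays the 3 Sdhb probes gave differences of -0.40, 0.56 and 0.64, and without CD9low replicate 2 they gave -0.26, -0.00092 and 0.023. Across the 22 members the median gap between the highest and lowest probe difference was 0.28 with all arrays and 0.17 without CD9low replicate 2, and gaps over 0.5 were found in 8 and 1 of them. The remaining gap, 0.83, was in Atp5a1, the alpha subunit of the F1 head, where the used probe and a dim probe annotated to another transcript disagreed. The cause of the deviations on CD9low replicate 2 was not tested.

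The rest of the respiratory system was read from lists of genes outside the symbol rule. None of 12 lists held a gene past the test in either direction, against 1.69% of all genes, and at an unadjusted p under 0.05 limma gave 15 of 253 list genes (5.93%), 3 higher and 12 lower in CD9high (4.74% lower), against 10.7% and 5.34% of all genes. Of the 12 lower genes, 8 were mitochondrial ribosomal protein genes. The 8 measured subunits encoded in mitochondrial DNA had a median of -0.078 and ranged from -0.23 (ATP6) to 0.20 (COX2), with ND4 at -0.19. Without CD9low replicate 2 their median was -0.16 and COX2 stood at 0.033. Of 4 measured nuclear partners, the cytochrome c gene Cycs differed by -0.043 and Ndufab1, the acyl carrier subunit of complex I, by -0.41 (adjusted p = 0.546), and Cyc1, which encodes cytochrome c1, by 0.11.

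Assembly factors, which build the complexes without staying in them, had medians of -0.24 for 17 of complex I, -0.021 for 10 of complexes II, III and V, and -0.15 for 20 of complex IV. For complex I the smallest p-values belonged to Lyrm2 (-0.70, SE 0.40, adjusted p = 0.597) and Ndufaf8 (-0.54, SE 0.33, adjusted p = 0.616), which without CD9low replicate 2 stood both at -0.32. Uqcc2, a complex III assembly factor, stood at 9.39, 9.09, 9.14 and 9.33 in CD9high and 8.13, 9.10, 7.92 and 8.44 in CD9low. The fractions met only at CD9low replicate 2, and the difference was 0.84 (SE 0.27, adjusted p = 0.246). Without that array it was 1.08 (SE 0.21, adjusted p = 0.0307), the only list gene past the test in any of the 17 alternatives. Cox18, which inserts a complex IV subunit into the membrane, differed by -0.74 (SE 0.26, adjusted p = 0.294), with no overlap. Sdhaf1, an assembly factor of complex II, differed by -0.60 (SE 0.27, adjusted p = 0.471), and Lrpprc, which stabilises mitochondrial mRNAs, by -0.83 (SE 0.33, adjusted p = 0.395).

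Among 13 measured transcription regulators of respiratory genes, the median was -0.071. Polrmt, the mitochondrial RNA polymerase, stood at 6.33, 4.81, 5.99 and 6.25 in CD9high, against 6.84, 7.86, 6.77 and 7.64 in CD9low. These did not overlap, with CD9high replicate 2 the lowest, and the difference was -1.43 (SE 0.39, adjusted p = 0.124). The nuclear receptor gene Esrra differed by -0.77 (SE 0.34, adjusted p = 0.452), and Nrf1, Gabpa and Tfam by 0.16, 0.40 and -0.071, or -0.21, 0.082 and -0.15 without CD9low replicate 2. The coactivator gene Ppargc1a was not measured, being detected on 0 arrays of CD9high and 1 of CD9low.

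Mitochondrial ribosomal protein genes, which make the proteins of the mitochondrial ribosome, had a median of -0.23, with 22 of 74 above 0. At an unadjusted p under 0.05 in limma, 8 of the 74 were lower in CD9high (10.8%) and 0 higher, against 5.34% of all genes lower. The fractions did not overlap for 6 lower and 1 higher (9.46%), against 7.69% of all genes. Their smallest p-values were those of Mrpl44 (-0.71, SE 0.28, adjusted p = 0.371) and Mrpl14 (-0.88, SE 0.34, adjusted p = 0.377). Cytosolic ribosomal protein genes had a median of 0.14, with 37 of 55 above 0, and Rpl13a (0.51, SE 0.22) and Rps9 (1.03, SE 0.52) came first by p, with adjusted p-values of 0.449 and 0.534. Without CD9low replicate 2 the medians were -0.13 for the mitochondrial and 0.10 for the cytosolic list, and Rps9 stood at 0.39. The medians of the citric acid cycle list (17 measured) and the glycolysis list (12) were -0.13 and 0.10. In the cycle, the succinate-CoA ligase gene Suclg1 differed by -0.43 (adjusted p = 0.534) and the pyruvate dehydrogenase gene Dlat by 0.50 (adjusted p = 0.610). In glycolysis, Eno2, an enolase gene, had 7.95, 8.18, 8.44 and 8.13 in CD9high and 7.66, 7.30, 7.40 and 7.55 in CD9low, apart but not past the test (0.70, SE 0.21, adjusted p = 0.191), and the pyruvate kinase gene Pkm differed by 0.71 (SE 0.38, adjusted p = 0.555), or 0.33 without CD9low replicate 2. Genes of mitochondrial transport and import (17 measured) had a median of 0.11, with 0.46 for the ADP/ATP carrier gene Slc25a4 and 0.98 (SE 0.56) for the phosphate carrier gene Slc25a3, which stood at 0.28 (SE 0.20) without CD9low replicate 2. Uncoupling and other electron entry genes (6 measured) had a median of -0.11, led by Dhodh (-0.33, or -0.15 without CD9low replicate 2) and Etfb (-0.13).

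The arrays lay on 2 slides, with replicates 1 to 3 of each fraction on slide 1 and replicate 4 on slide 2. The median member difference was 0.0059 on slide 1 and 0.0088 on slide 2, where 1 array per fraction allows no test. On slide 2, 67 of 74 members (90.5%) differed by under 0.5, as did 70.9% of all genes.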

How the data were processed

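Per the labels' protocols, fat was digested with collagenase, progenitors were sorted, and RNA was amplified (Ovation Pico WTA System V2) and biotin-labelled for Illumina bead arrays; such amplification can distort ratios between transcripts. The authors deposited signal intensity for 45281 probes on 8 arrays which, per the file headers, comes with a detection p-value per probe. The submitters' processing notes name GenomeStudio, without a version. The deposited intensity values had a background subtracted (lowest -17.4) and were not normalized between arrays. A second deposited intensity table had medians of 9.07 to 9.20 and the rank order of the signals; it was read as quantile normalized, linear values, and used only as an alternative. What else was done to it is unknown.

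With limma 3.58.1 in R 4.3.3, neqc corrected background (negative controls inferred from detection p, offset 16), quantile normalized and took log2. The offset compresses differences of dim probes. Genes needed a detection p under 0.05 on at least 4 of 8 arrays and were represented by the probe with the highest mean; 18085 probes of 10724 genes passed. CD9high and CD9low were compared by lmFit and eBayes without a block, with Benjamini-Hochberg adjustment over all genes at 0.05; intervals are 95%. The fit was tested on simulated data with independent noise on every array. That simulation holds no array that stands apart, so it cannot speak to CD9low replicate 2. Levels were not compared between probes, so a planned naming of the brightest members was dropped. Names came from the platform annotation (34885 probes with 1 symbol, 18 with several, 10378 with none), probes were not checked against near-identical genes, and a probe has no build or coordinates here.

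Members, lists and tests were chosen with earlier results of these data known. Values on every array are given for the 3 members of each complex with the smallest p, and for the measured complex IV isoforms. Also named are the highest and lowest member of each complex, members without overlap, and in each list the 2 genes with the smallest p; other names illustrate a role or a count. The 17 alternatives were no background correction, median centring, an offset of 50, the authors' normalized values, no filter, slide or replicate number as a block, slide 1 alone, the mean of all tested probes, and leaving out each array. The number of arrays limits the precision.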

Additional observations from a re-analysis of the deposited data

Results flagged for a closer look

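Dixon's test was applied to each fraction's 4 arrays for the 74 members, for the median of each complex and for the median of all members. In 12 of 160 such sets 1 array lay apart, where chance gives about 1 in 20 for a single set. The sets share the same arrays and are not independent, so this share is no measure for the count. In 8 of the 12 the array apart was CD9low replicate 2. That array was above the other CD9low arrays for Ndufs7 (9.31, beside 8.36 to 8.51), Ndufa3 (9.61, beside 9.02 to 9.05), Uqcrc1 (9.88, beside 9.05 to 9.14) and Atp5g3 (10.81, beside 10.30 to 10.31). It was below them for Ndufs3 (5.25, beside 6.88 to 6.93), Ndufb6 (8.08, beside 10.05 to 10.44), Sdha (5.75, beside 7.85 to 7.99) and Uqcrh (6.47, beside 9.24 to 9.26). CD9high replicate 2 was below the other CD9high arrays for Ndufa3 (8.42, beside 9.09 to 9.19) and Ndufc1 (6.39, beside 6.90 to 6.99), and above them for Ndufb8 (11.47, beside 11.24 on the other 3). CD9low replicate 3 was low for Ndufc1 (6.60, beside 7.07 to 7.16).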

How the results depend on the processing

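Of the members, 0 were higher in CD9high by the test in any of the 17 alternatives, and 1, Uqcrq, was lower without CD9high replicate 4, so that leaving out 1 array gave 0 to 1 lower members. The smallest adjusted p of Cox4i2 was 0.0575, with the authors' normalized values. The median of all members ran from -0.025 to 0.059 over the alternatives. Leaving out 1 array gave medians of -0.050 to 0.053 for complex I, -0.11 to 0.045 for II, -0.33 to -0.11 for III, -0.044 to 0.072 for IV and -0.11 to 0.028 for V. With the mean of all tested probes, the median of complex II was 0.21 and Sdhb stood at 0.26, since its other probes are then counted. List genes past the test numbered 0 to 1 higher with 1 array left out (Uqcc2, without CD9low replicate 2) and 0 lower.

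Over all genes, 121 were higher and 60 lower in CD9high. Leaving out 1 array gave 36 to 158 higher and 18 to 72 lower. Slide 1 alone, with fewer arrays, gave 35 and 13. Median centring gave 32 lower. The replicate block, using the numbers that the fractions share, gave 56 higher and 20 lower and left 0 members past the test. The numbers were not taken to pair the samples. Deviations of same-numbered arrays correlated at 0.223, -0.0996, 0.183 and 0.159 over 10724 genes for replicates 1 to 4. Not every CD9high array correlated best with its own number. By replicate number, macrophage markers summed to 1392, 2555, 1080 and 323 in CD9high, and 1394, 2927, 1493 and 290 in CD9low. Their highest and lowest sums fell on the same numbers. This was not so for mesothelial markers, at 185, 111, 107 and 209 against 152, 122, 158 and 62. Whether same-numbered samples share an origin was not tested. Cd9 passed in all 17. For dim genes such as Cox4i2 and Cox8b, signal over background limits what can be said.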
